A study of Mus musculus with 8 samples.

Results

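The 10 genes described here handle heme and iron in lung: Hmox1, Blvrb, Fth1, Ftl1, Ncoa4, Tfrc, Slc39a14, Slc11a1, Slc40a1 and Cp. They were chosen by name, for their roles in heme breakdown, ferritin storage and turnover, iron import and iron export, and make up 10 of the 24584 genes in the tables. Earlier results of these data were known when they were chosen. Lung RNA was sequenced from 8 male ICR mice aged 6 to 8 weeks and labelled as wild type, 4 in the LPS group and 4 in the LPS + Tan group. All 8 mice received LPS, the bacterial endotoxin used to model sepsis, at 5 mg/kg by intraperitoneal injection. The LPS + Tan mice also received tangeretin, a polymethoxylated flavone of citrus peel, at 50 mg/kg by the same route 30 min before LPS, and lungs were collected at 12 h of LPS exposure. Untreated mice and mice given only tangeretin were not among the 8, so every value is for an LPS-exposed lung, and the comparison asks what the tangeretin pretreatment changed within it. The study examined tangeretin for its effect on ferroptosis, the iron-dependent form of cell death.

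Heme released from damaged red cells is opened by heme oxygenase, which frees its iron. Free iron is oxidised and packed into ferritin, a shell of heavy (Fth1) and light (Ftl1) chains, and is released again when the receptor Ncoa4 carries ferritin to lysosomes. Cells take up iron on transferrin through the transferrin receptor Tfrc, and export it through ferroportin (Slc40a1), whose iron is oxidised by ceruloplasmin (Cp). In lung, macrophages clear red cells and hold much of the iron, and an infected host keeps iron away from microbes by storing it.

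Iron itself sets the output of several of these mRNAs through the iron-responsive element, a short hairpin in the untranslated region (UTR) that is bound by iron regulatory proteins when iron is scarce. A hairpin in the 5′ UTR then blocks translation, whereas hairpins in the 3′ UTR protect the mRNA from decay. The element was searched on the transcript strand in the GENCODE M21 transcripts (GRCm38) as an unpaired C, 5 bases, the loop CAGTGN, and 5 bases that pair with the first 5. It was found in the UTRs of 4 of the 10 genes. They are printed 5′ to 3′, with 6 flanking bases on each side and the loop in capitals, because they separate the members whose mRNA level is under this control (Tfrc) from those controlled at translation, which read counts do not measure.
Fth1 5′ UTR, chr19:9982732-9982760, plus strand: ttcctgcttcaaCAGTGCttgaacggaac
Ftl1 5′ UTR, chr7:45459779-45459807, minus strand: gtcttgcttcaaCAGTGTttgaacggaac
Slc40a1 5′ UTR, chr1:45925465-45925493, minus strand: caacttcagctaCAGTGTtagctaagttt
Tfrc 3′ UTR, chr16:32631219-32631247, plus strand: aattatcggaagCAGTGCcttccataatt
Tfrc 3′ UTR, chr16:32631598-32631626, plus strand: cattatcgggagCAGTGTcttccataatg
Tfrc 3′ UTR, chr16:32631663-32631691, plus strand: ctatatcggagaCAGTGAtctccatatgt
Tfrc 3′ UTR, chr16:32631710-32631738, plus strand: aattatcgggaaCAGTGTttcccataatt

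The ferritin chains and ferroportin each held 1 match, in the 5′ UTR, and Tfrc held 4, all in the 3′ UTR. Among all annotated genes, 31 of 20899 (0.148%) matched in a 5′ UTR and 129 of 21685 (0.595%) in a 3′ UTR, and UTR lengths were not matched in this count. A match is a description of the letters, and no match in the other 6 members says only that this pattern was not in their annotated UTRs.

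Total counts lay between 38895654 and 39931970 per library, and Pearson correlations between libraries between 0.976 and 0.9893. No pair within a group was a repeated library. Of 15706 genes with enough counts to test, edgeR's quasi-likelihood test called 804 at an unadjusted p below 0.05 (5.12%), of which 451 were higher (2.87%) and 353 lower (2.25%) in LPS + Tan. Leaving out single mice gave 268 to 820 higher and 212 to 806 lower genes. The study's thresholds, an unadjusted p below 0.05 with a log2 fold change past 1 in either direction, were met by 102 genes (0.649%). After Benjamini-Hochberg adjustment 0 genes passed 0.05 (0%) by edgeR and 0 by limma-voom. DESeq2 gave 35, but it was run without this filter on counts and tested 24558 genes. The groups did not overlap in 429 of the 15706 genes (2.73%). The lung is a mixture of cells, so fewer cells of a type and less RNA per cell cannot be told apart. P-values measure the spread between these mice.

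None of the 10 heme and iron handling genes passed any of these thresholds. Of the 10, 5 had a higher and 5 a lower fitted level in LPS + Tan, with a median log2 fold change of 0.040 against 0.007 over all genes tested, and the groups overlapped in every one. All 10 passed the count filter. Fitted log2 fold changes lay between -0.59 for Slc39a14 and 0.31 for Slc40a1, and unadjusted p-values between 0.0577 and 0.885.

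**Figure D1:**
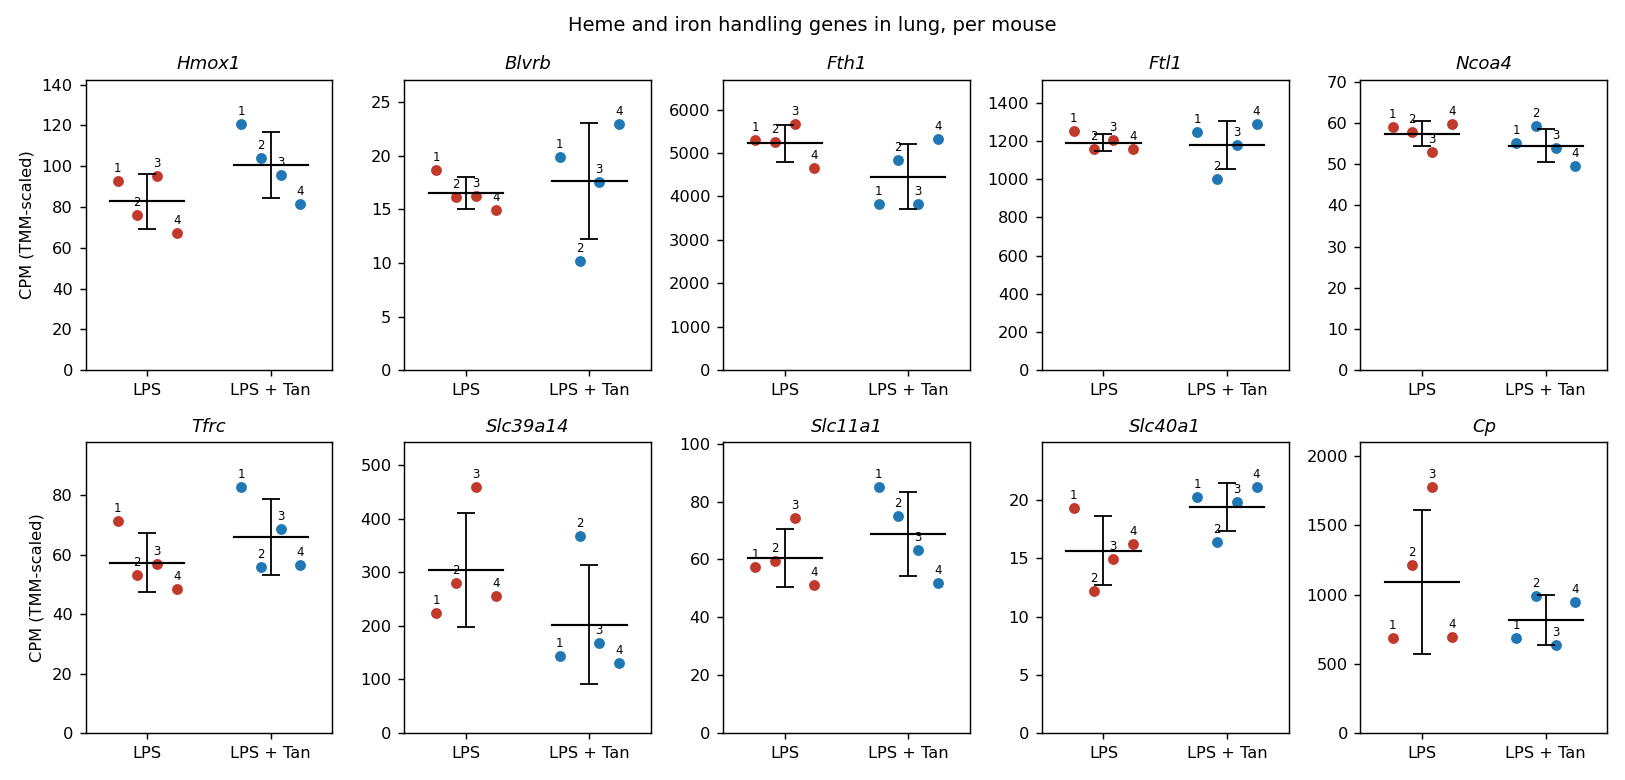
Level of each of the 10 genes in every mouse, in CPM (counts relative to library size, scaled by TMM), on axes that start at 0. Numbered points are mice, horizontal bars are group means and error bars are 1 SD (n = 4 per group); in every panel the points of LPS and LPS + Tan overlap, and the ratio of the highest to the lowest mouse is largest in Slc39a14 (3.53) and Cp (2.81).

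Per unit of gene length, the ferritin chains were the most abundant of the 10 by far. The median FPKM over the 8 samples was 5318 for Fth1, rank 5 of all 24584 genes, and 1234 for Ftl1, rank 20. Cp followed at 111.0, Hmox1 at 57.8, Slc39a14 at 23.2, Blvrb at 17.3, Slc11a1 at 14.7, Ncoa4 at 13.4, Tfrc at 10.8 and Slc40a1 at 5.09. In that order the ranges over samples overlapped between each pair of neighbours from Hmox1 down to Tfrc, and did not overlap between Fth1 and Ftl1, Ftl1 and Cp, Cp and Hmox1, or Tfrc and Slc40a1. The order depends on the gene lengths implied by the deposited values, which were 10218 bases for Slc39a14 and 1576 for Hmox1. In CPM (counts relative to library size), the median was 239.6 for Slc39a14 and 93.9 for Hmox1. Fth1 alone took 0.395% to 0.543% of the counts of a library.

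Heme breakdown is represented by Hmox1 and Blvrb. Hmox1 (chr8:75093618-75100593, GRCm38.p6, as for all gene positions here) encodes the inducible heme oxygenase, a target of the transcription factor Nrf2. Its level was 92.7, 76.1, 94.99 and 67.1 CPM (counts relative to library size) in LPS replicates 1 to 4, and 121, 104, 95.6 and 81.7 CPM in LPS + Tan replicates 1 to 4. Of the LPS + Tan mice, 3 lay above every LPS mouse, if only just in replicate 3, and replicate 4 lay below 2 of them. The means were 82.7 ± 13.4 and 100.5 ± 16.3 CPM (SD, n = 4 each), and the log2 fold change was 0.28 (SE 0.14, 95% interval -0.039 to 0.60, adjusted p = 0.924). Its unadjusted p was 0.0790, which became 0.0451 without LPS replicate 3 and 0.0244 without LPS + Tan replicate 4, while the log2 fold change was 0.18 (unadjusted p = 0.236) without LPS + Tan replicate 1.

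Blvrb (chr7:27447978-27465981), biliverdin reductase B, reduces a bile pigment made from heme and also acts as a flavin reductase. It measured 18.6, 16.2, 16.3 and 15.0 CPM in LPS and 19.9, 10.2, 17.6 and 22.95 CPM in LPS + Tan. Both the lowest and the highest of the 8 levels were therefore in LPS + Tan, in replicates 2 and 4, and the coefficient of variation was 9.21% in LPS and 30.7% in LPS + Tan. Its log2 fold change was 0.096 (SE 0.21, 95% interval -0.37 to 0.56, adjusted p = 0.985). It was -0.056 without LPS + Tan replicate 4, 0.032 without LPS + Tan replicate 1, 0.052 without LPS replicate 4, 0.16 without LPS replicate 1 and 0.29 (unadjusted p = 0.0430) without LPS + Tan replicate 2, so its direction rested on single mice.

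Ferritin storage is represented by both chains and by the receptor that turns ferritin over. Fth1 (chr19:9980600-9985111), the heavy chain with the ferroxidase centre, measured 5301, 5263, 5666 and 4656 CPM in LPS and 3834, 4827, 3835 and 5329 CPM in LPS + Tan. LPS + Tan replicates 1 and 3 lay below every LPS mouse, while replicate 4 lay above 3 of them. The means were 5221 ± 419 and 4456 ± 747 CPM (SD, n = 4 each). The fitted log2 fold change was -0.23 (SE 0.15, 95% interval -0.56 to 0.098, adjusted p = 0.929), and -0.33 (unadjusted p = 0.0375) without LPS + Tan replicate 4.

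Ftl1 (chr7:45457944-45459886), the light chain that helps the shell take up and mineralise iron, was steadier. It measured 1251, 1155, 1203 and 1156 CPM in LPS, against 1248, 999, 1178 and 1288 CPM in LPS + Tan. The means were 1191 ± 45.8 and 1178 ± 128 CPM (SD, n = 4 each). The log2 fold change was -0.016 (SE 0.11, 95% interval -0.25 to 0.22, adjusted p = 0.998), and its sign turned in limma on FPKM (0.020) and when LPS replicate 1 (0.0087) or LPS + Tan replicate 2 (0.056) was left out.

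The ferritin genes have near-identical copies in the genome, among which reads can be split. The tables held Ftl1-ps2, with 9 counts over the LPS and 7 over the LPS + Tan libraries, and Fthl17a, with 1 count in LPS replicate 4. Neither reached the count filter.

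Ncoa4 (chr14:32159879-32179855), the ferritin receptor of ferritinophagy, varied least among mice, by 1.2 times between the lowest and highest. It measured 59.0, 57.9, 52.9 and 59.8 CPM in LPS and 55.2, 59.3, 54.0 and 49.6 CPM in LPS + Tan. Its log2 fold change was -0.074 (SE 0.080, 95% interval -0.25 to 0.10, adjusted p = 0.966). It was -0.032 without LPS + Tan replicate 4 and -0.12 without LPS + Tan replicate 2.

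Iron import is represented by Tfrc, Slc39a14 and Slc11a1. Tfrc (chr16:32608896-32632794), the transferrin receptor whose 3′ hairpins are printed above, measured 71.2, 53.1, 56.9 and 48.4 CPM in LPS and 82.9, 55.8, 68.7 and 56.5 CPM in LPS + Tan. Replicate 1 was the highest mouse of each group. The means were 57.4 ± 9.86 and 66.0 ± 12.7 CPM (SD, n = 4 each), and the log2 fold change was 0.20 (SE 0.15, 95% interval -0.14 to 0.54, adjusted p = 0.938). It was 0.069 without LPS + Tan replicate 1, 0.13 without LPS replicate 4 and 0.32 without LPS replicate 1.

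Slc39a14 (chr14:70303467-70351452) encodes ZIP14, which imports iron not bound to transferrin and is induced by interleukin-6 in the acute phase. It was the most variable of the 10, by 3.53 times between the lowest and highest mouse. The levels were 223, 279, 460 and 256 CPM in LPS and 143, 367, 167 and 130 CPM in LPS + Tan. In LPS + Tan, 3 mice lay below every LPS mouse, and replicate 2 lay above 3 of them. The means were 304.5 ± 106 and 202 ± 111 CPM (SD, n = 4 each), and the log2 fold change was -0.59 (SE 0.34, 95% interval -1.35 to 0.17, unadjusted p = 0.113, adjusted p = 0.927). Without LPS + Tan replicate 2 the log2 fold change was -1.05 (unadjusted p = 0.00137, adjusted p = 0.239), so the call at the study's thresholds turned on 1 library. Without LPS replicate 3 it was -0.32 (unadjusted p = 0.349).

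Slc11a1 (chr1:74375014-74386057) encodes NRAMP1, which moves iron and other divalent metals out of the phagosome of macrophages and neutrophils. It measured 57.2, 59.3, 74.4 and 51.0 CPM in LPS and 85.1, 75.0, 63.2 and 51.9 CPM in LPS + Tan. LPS + Tan replicates 1 and 2 were the highest of the 8 mice and LPS replicate 4 and LPS + Tan replicate 4 the lowest. The fitted log2 fold change was 0.19 (SE 0.16, 95% interval -0.17 to 0.54, adjusted p = 0.950). It was 0.065 without LPS + Tan replicate 1, 0.11 without LPS replicate 4, 0.30 without LPS + Tan replicate 4 and 0.30 without LPS replicate 3. The summed level of 10 neutrophil markers was 4567 to 6319 CPM in LPS and 4254 to 6111 CPM in LPS + Tan, that of 10 macrophage and monocyte markers 1996 to 2965 and 2313 to 3030 CPM, and their part in the levels of Slc11a1 and Hmox1 was not tested.

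Iron export is represented by Slc40a1 and Cp. Slc40a1 (chr1:45908070-45926532), ferroportin, is the only known cellular iron exporter of mammals. It measured 19.3, 12.2, 15.0 and 16.2 CPM in LPS and 20.3, 16.4, 19.9 and 21.2 CPM in LPS + Tan. LPS + Tan replicates 1, 3 and 4 lay above all 4 LPS mice, and replicate 2 lay above 3 of them, below LPS replicate 1. The means were 15.7 ± 2.98 and 19.4 ± 2.07 CPM (SD, n = 4 each). The log2 fold change was 0.31 (SE 0.14, 95% interval -0.012 to 0.63, adjusted p = 0.924), with an unadjusted p of 0.0577, the lowest of the 10. It was 0.43 (unadjusted p = 0.0126) without LPS replicate 1 and 0.38 (unadjusted p = 0.0275) without LPS + Tan replicate 2, but 0.20 (unadjusted p = 0.162) without LPS replicate 2, and the unadjusted p was 0.0805 to 0.125 without each of the other mice.

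Cp (chr3:19956933-20009750), the copper ferroxidase ceruloplasmin, is an acute phase protein that lung epithelium also makes. It measured 688, 1212, 1779 and 691 CPM in LPS and 684, 989, 632 and 947 CPM in LPS + Tan. The highest 2 mice were LPS replicates 3 and 2, but LPS replicates 1 and 4 lay close to the lowest LPS + Tan mice. The means were 1093 ± 520 and 813 ± 181 CPM (SD, n = 4 each), and the log2 fold change was -0.43 (SE 0.30, 95% interval -1.10 to 0.25, adjusted p = 0.936). It was -0.087 without LPS replicate 3 alone, and -0.32 to -0.59 without each of the other mice. Liver makes most circulating ceruloplasmin, and 10 hepatocyte markers summed to 5.88 to 9.98 CPM in LPS and 2.56 to 5.41 CPM in LPS + Tan. Of these 10, 3 had a mean above 1 CPM (Fga 2.22, Serpina1a 1.499 and Apoh 1.26 CPM), and Alb was at 0.300 CPM. The hepatocyte sums were lower in LPS + Tan, as was the mean of Cp, and their part in the level of Cp was not tested.

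**Figure D2:**
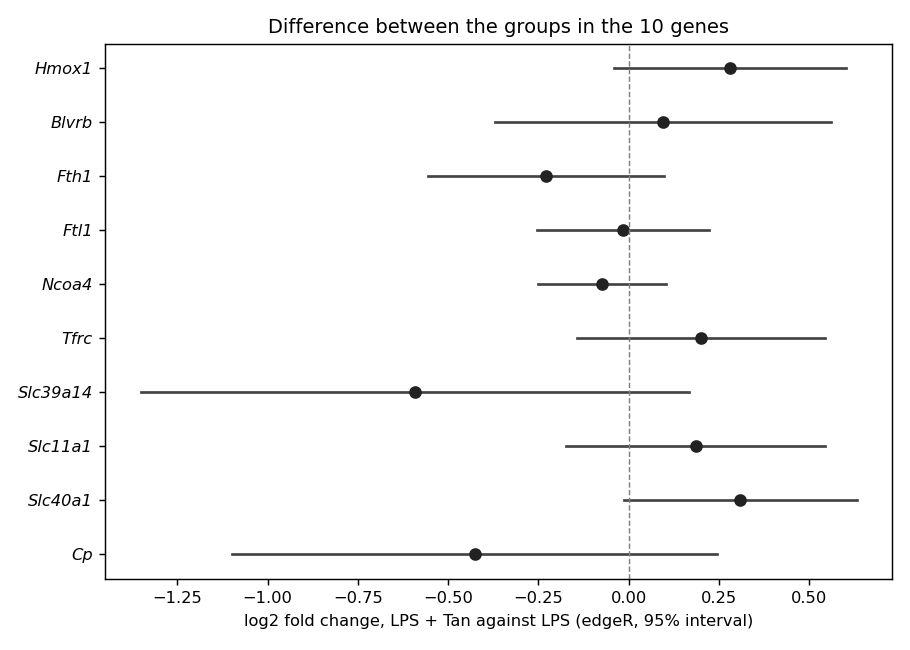
Log2 fold change of LPS + Tan against LPS for the 10 genes, from the edgeR fit to all 8 samples, with 95% intervals as horizontal lines and the dashed line at 0. Every interval includes 0, and the intervals of Slc39a14 and Cp are the widest.

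The mRNA levels of the ferritin chains, and of Tfrc and Fth1, were compared as FPKM ratios within each mouse, with no test. These ratios do not measure protein or iron. The ratio of Ftl1 to Fth1, multiplied by 1000, was 229, 213, 206 and 241 in LPS and 316, 201, 298 and 235 in LPS + Tan. LPS + Tan replicates 1 and 3, the mice with the least Fth1, had the highest ratios, while replicates 2 and 4 lay near or within the LPS range. The means were 222.4 ± 15.7 and 262 ± 53.9 (SD, n = 4 each), a mean log2 difference of 0.22. It was 0.12 without LPS + Tan replicate 1 and 0.34 without LPS + Tan replicate 2.

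The ratio of Tfrc to Fth1, whose hairpins lie at opposite ends of the mRNA, was 2.46, 1.84, 1.84 and 1.90 in LPS and 3.96, 2.11, 3.28 and 1.94 in LPS + Tan, again multiplied by 1000. LPS + Tan replicates 1 and 3 again stood highest, and both ratios divide by Fth1, which was lowest in these mice. The mean log2 difference was 0.44 and the groups overlapped, since LPS replicate 1 lay above LPS + Tan replicates 2 and 4. Without LPS + Tan replicate 1 the difference was 0.25.

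**Figure D3:**
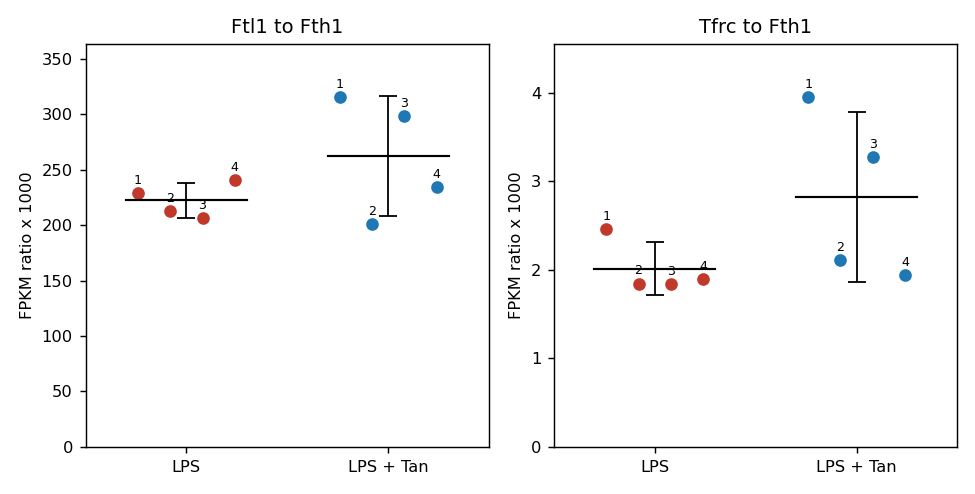
FPKM ratio of Ftl1 to Fth1 and of Tfrc to Fth1 in every mouse, multiplied by 1000, on axes that start at 0. Bars and error bars are mean and 1 SD (n = 4 per group); in both panels LPS + Tan replicates 1 and 3 lie above all LPS mice and the other two LPS + Tan mice do not.

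Across the 8 mice the 10 genes were compared in all 45 pairs, by exact two-sided permutation of log2 CPM over all pairings of the mice. The closest pair was Blvrb and Ftl1. Their Pearson r was 0.974 (exact permutation p = 0.000347, adjusted over the 45 pairs 0.0156) and Spearman's rho 0.929 (exact permutation p = 0.00223, adjusted 0.1004). Within groups, as deviations from the group means, r was 0.987. Without the 2 mice farthest from the median of Blvrb, LPS + Tan replicates 2 and 4, r was 0.858. Leaving out single mice gave r between 0.915 and 0.983, though the adjusted p was then below 0.05 for any pair only without LPS replicate 2, LPS replicate 3 or LPS + Tan replicate 3.

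Hmox1 and Slc11a1 came next, with r 0.876 (exact permutation p = 0.00434, adjusted 0.0977) and rho 0.905 (exact permutation p = 0.00456, adjusted 0.103). Within groups r was 0.877, and without the 2 mice farthest from the median of Hmox1, LPS replicate 4 and LPS + Tan replicate 1, it was 0.717. Hmox1 and Tfrc had r 0.795 (exact permutation p = 0.0174, adjusted 0.262) and rho 0.690 (exact permutation p = 0.0694, adjusted 0.288). Within groups r was 0.749, and without the same 2 mice it was 0.370. The unadjusted p stayed below 0.05 in 9 of 11 alternatives, the exceptions being without LPS replicate 4 (r 0.706, exact permutation p = 0.0835) and without LPS + Tan replicate 1 (r 0.635, exact permutation p = 0.127).

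Slc39a14 ran opposite to 2 members at an unadjusted p below 0.05. With Slc40a1 it had r -0.740 (exact permutation p = 0.0360, adjusted 0.324) and rho -0.881 (exact permutation p = 0.00724, adjusted 0.109). Within groups that r was -0.602, and without LPS replicates 2 and 3, the farthest from the median of Slc40a1, it was -0.910. Without LPS replicate 2 alone r was -0.948 (exact permutation p = 0.000794, adjusted 0.0223), but the exact permutation p was 0.0508 to 0.0966 without LPS replicate 1 or 4 or LPS + Tan replicate 1, 3 or 4, and 0.107 within groups. Slc39a14 and Blvrb had r -0.733 (exact permutation p = 0.0296, adjusted 0.324) and rho -0.810 (exact permutation p = 0.0218, adjusted 0.245), with r -0.842 within groups and -0.666 without LPS + Tan replicates 2 and 4. Its unadjusted p exceeded 0.05 without LPS + Tan replicate 1 (exact permutation p = 0.0778), 3 (0.0506) or 4 (0.126). Fth1 and Cp had r 0.708 (exact permutation p = 0.0474, adjusted 0.356) and rho 0.714 (exact permutation p = 0.0576, adjusted 0.288), and r was 0.652 without LPS + Tan replicates 1 and 3. Its unadjusted p stayed below 0.05 in 1 of 11 alternatives.

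**Figure D4:**
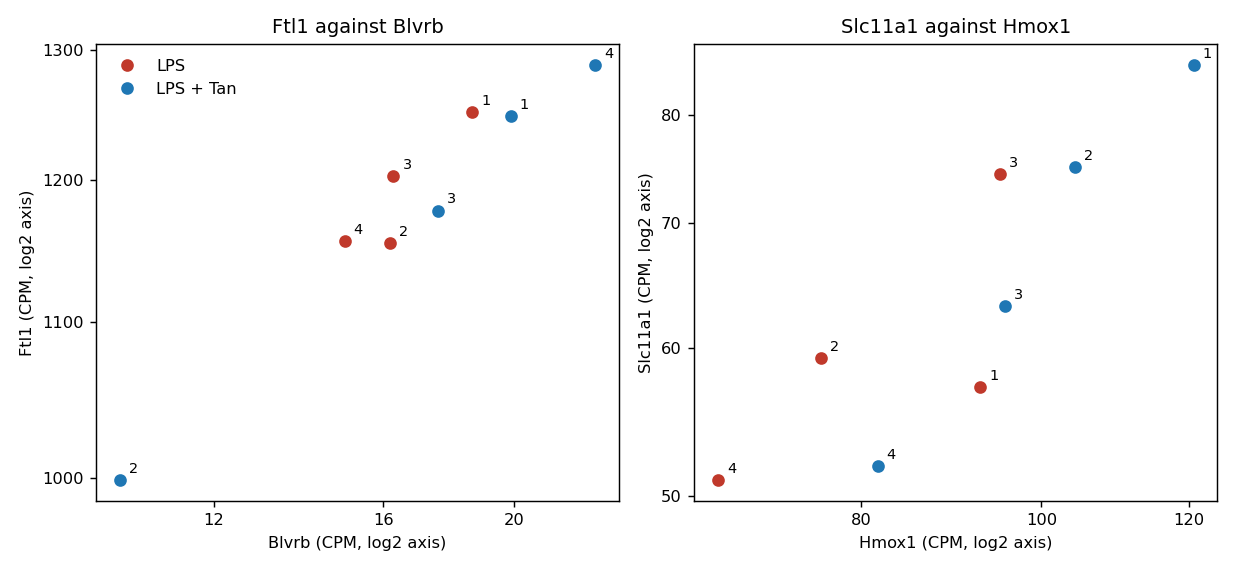
CPM of Ftl1 against Blvrb and of Slc11a1 against Hmox1 in the 8 mice, on log2 axes that do not start at 0, with LPS in red and LPS + Tan in blue. Pearson r is 0.974 in the left panel, where LPS + Tan replicates 2 and 4 form the ends, and 0.876 in the right panel.

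Another 70 genes of heme and iron biology, in 8 lists, gave the wider pathway. Of these 69 were in the tables and 65 had enough counts to test. The other 4 were Tfr2, Hephl1, Hamp2 and Tmprss6, with 30, 4, 5 and 17 counts over all libraries. Of the 65, 36 had a higher and 29 a lower fitted level, with a median log2 fold change of 0.014. At an unadjusted p below 0.05, 2 were higher in LPS + Tan (Cd163 and Bmp6) and 3 lower (Steap1, Steap2 and Steap4), or 7.69% of the 65 against 5.12% of all genes. The lists were chosen with earlier results of these data known, so these shares are a description and not a test. No adjusted p was below 0.05 and none of the 65 met the study's thresholds. Without LPS + Tan replicate 1 the 5 became 0 higher and 3 lower, without LPS + Tan replicate 2 they became 3 higher and 8 lower, without LPS + Tan replicate 4 they became 2 higher and 5 lower, and without LPS replicate 3 they became 1 higher and 2 lower. The calls over all genes moved as well, from 451 higher and 353 lower. In the same order of omissions they became 268 and 212, 820 and 806, 761 and 727, and 315 and 272, of 15895 to 15932 genes tested.

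Cd163, the macrophage receptor that takes up hemoglobin bound to haptoglobin, was the only call among the 11 tested genes of heme breakdown and transport (9.09%, against 5.12% of all genes). It measured 11.8, 10.5, 9.83 and 6.82 CPM in LPS and 17.6, 16.8, 11.8 and 10.1 CPM in LPS + Tan. The upper 2 mice were both LPS + Tan, and the groups overlapped in between. Its log2 fold change was 0.53 (SE 0.22, adjusted p = 0.924), with an unadjusted p of 0.0332, which exceeded 0.05 without LPS replicate 3 (0.0565), LPS replicate 4 (0.0856), LPS + Tan replicate 1 (0.102) or LPS + Tan replicate 2 (0.0868), and in limma on log2(FPKM + 1) of all genes (0.0539). In the macrophage and monocyte list, 1 of 10 markers was higher at an unadjusted p below 0.05 (C1qa, log2 fold change 0.28) and 0 were lower, against 2.87% and 2.25% of all genes, and its part in the level of Cd163 was not tested.

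Bmp6, the ligand by which liver endothelium raises hepcidin, the hormone that closes ferroportin, was the only call among the 10 tested genes of iron sensing and the hepcidin axis (1 of 10, against 5.12% of all genes). It measured 80.9, 73.7, 47.6 and 87.1 CPM in LPS and 146, 69.9, 111 and 136 CPM in LPS + Tan. Replicates 1, 3 and 4 of LPS + Tan lay above every LPS mouse and replicate 2 within the LPS range. The log2 fold change was 0.68 (SE 0.24, adjusted p = 0.924), with an unadjusted p of 0.0175, or 0.0537 without LPS + Tan replicate 1. Of 10 endothelial markers, 2 were higher at an unadjusted p below 0.05 (Tek, log2 fold change 0.51, and Kdr, 0.37), against 2.87% of all genes. Their summed level was 3630 to 4719 CPM in LPS and 4438 to 4760 CPM in LPS + Tan, and its part in the level of Bmp6 was not tested.

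The iron import list held the other 3 calls, all in the STEAP family, which includes metalloreductases that reduce iron and copper at membranes. Of its 11 tested genes 3 were lower and 0 higher at an unadjusted p below 0.05, with a median log2 fold change of -0.30, against 2.25% lower and 2.87% higher of all genes tested. The fourth family member of the list, Steap3, named after its value was seen, had a log2 fold change of 0.14 (SE 0.16, unadjusted p = 0.380). Steap1 (chr5:5736322-5749317) was low, at 2.40, 3.22, 3.16 and 3.40 CPM in LPS and 0.763, 2.21, 1.65 and 1.77 CPM in LPS + Tan. Steap2 (chr5:5664829-5694649), close to it on the chromosome, measured 78.8, 83.9, 86.5 and 80.5 CPM in LPS and 40, 68.4, 46.3 and 68.5 CPM in LPS + Tan. In both genes every LPS mouse lay above every LPS + Tan mouse, a separation of either sign that 2.73% of all genes showed.

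The log2 fold change was -0.93 for Steap1 (SE 0.30, unadjusted p = 0.0105, adjusted p = 0.924) and -0.56 for Steap2 (SE 0.17, unadjusted p = 0.00680, adjusted p = 0.922). Both stayed below an unadjusted p of 0.05 in all 18 other analyses run, each mouse left out included. The genes were named for their p in the main fit and these analyses reuse the same mice, so they are not independent support. Steap1 passed the study's fold threshold as well in limma-voom (-1.02), without LPS replicate 1 (-1.03) and without LPS + Tan replicate 2 (-1.13), and was at -0.60 in limma on log2(FPKM + 1). Steap4 (chr5:7960472-7982213) is the family member known for induction by inflammation. It measured 277, 382, 293 and 202 CPM in LPS and 238, 187, 227 and 224 CPM in LPS + Tan, so LPS replicate 4 lay within the LPS + Tan range. Its log2 fold change was -0.40 (SE 0.17, unadjusted p = 0.0425, adjusted p = 0.924), with p above 0.05 in 11 of the 18 other analyses, among them those without LPS replicate 1, 2 or 3 or LPS + Tan replicate 2, 3 or 4, where it was 0.0606 to 0.139, and the log2 fold change was -0.24 without LPS replicate 2.

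**Figure D5:**
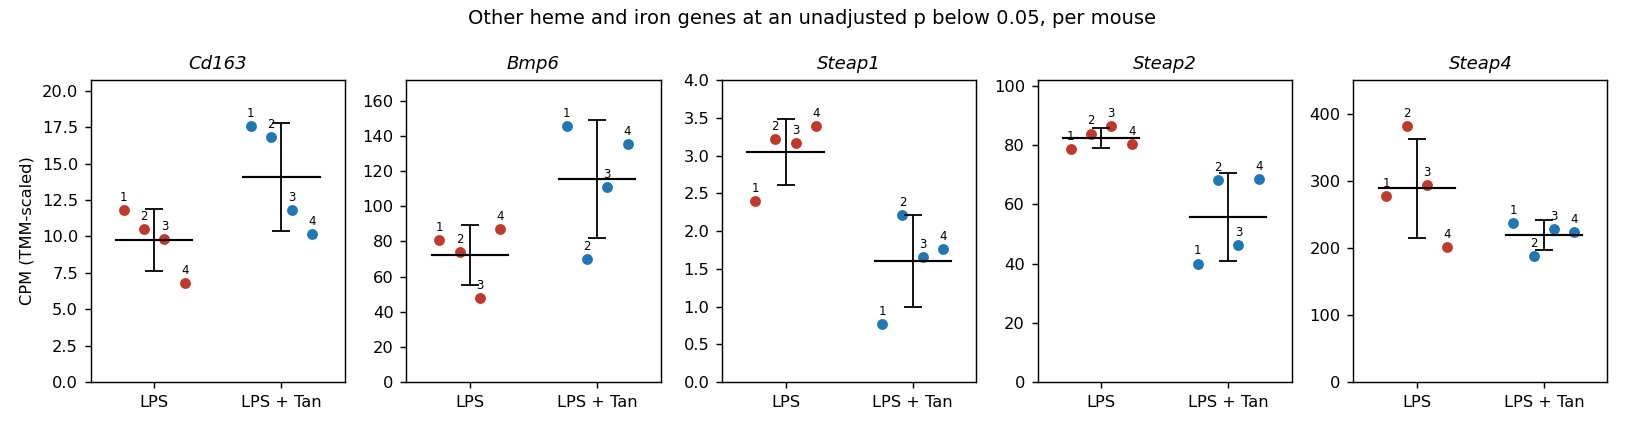
CPM of the 5 other heme and iron genes with an unadjusted p below 0.05, in every mouse, on axes that start at 0. Bars and error bars are mean and 1 SD (n = 4 per group); the groups do not overlap in Steap1 and Steap2 and overlap in Cd163, Bmp6 and Steap4.

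The remaining lists held no gene at an unadjusted p below 0.05. In heme synthesis, 9 genes had log2 fold changes of -0.47 to 0.16. The 3 tested genes of storage and ferritinophagy beside the members lay between -0.021 and 0.044, and Heph, the one tested gene of iron export beside the members, was at -0.15. The 10 genes of mitochondrial iron and iron-sulphur clusters lay between -0.25 and 0.13. The 10 transcription factors and partners of this pathway lay between -0.58 and 0.31. Among them, and named after their values were seen because Nrf2 is central to the study, Nfe2l2, which encodes Nrf2, had a log2 fold change of 0.098 (SE 0.10), its inhibitor Keap1 0.064 (SE 0.093) and Bach1, the heme-sensing repressor of Hmox1, -0.032 (SE 0.11). These are mRNA levels, whereas the study examined Nrf2, Keap1 and the product of Hmox1 as protein, which read counts do not measure.

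Red cells carry heme into the tissue, and 10 erythroid markers summed to 1451 to 3489 CPM in LPS and 1350 to 2213 CPM in LPS + Tan, with 0 of 10 at an unadjusted p below 0.05. The other lists of 10 overlapped between groups as well, at 1348 to 2409 and 1336 to 2436 CPM for alveolar macrophage, 9123 to 12960 and 8924 to 14200 CPM for alveolar epithelium, 14250 to 19210 and 12880 to 18260 CPM for airway epithelium, and 2997 to 3678 and 3019 to 3475 CPM for fibroblast markers. Of these and the neutrophil markers, 1 was called at an unadjusted p below 0.05, the airway gene Ccdc153 (log2 fold change -0.38), against 5.12% of all genes. The hepatocyte sums did not overlap, and 2 of the 4 hepatocyte markers tested were lower at an unadjusted p below 0.05, against 2.25% of all genes. In all lists but that of the hepatocyte, all 10 markers had a mean above 1 CPM.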

How the data were processed

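Lung RNA-seq was analysed in 4 LPS and 4 LPS + Tan mice, grouped by the labels. The authors deposited a table of raw read counts per gene and a table of FPKM values for the same 24584 genes. The deposited FPKM equal those counts per gene length and library total, since the lengths implied by both tables differed by at most 0.000269% between samples. The submitters' processing notes name the builds GRCm 38 and mm 10. The aligner and counter were not given in the sources used here. Labels and methods name different RNA and library kits, so whether the counting used strand was not settled.

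The test was that of edgeR 4.0.16, run in R 4.3.3 (filterByExpr, TMM, quasi-likelihood, no covariate), and p-values were adjusted by the Benjamini-Hochberg method over all 15706 genes tested. CPM are TMM-scaled, and log2 CPM used a prior count of 2. Scripts were tested on simulated data. FPKM were used for levels between genes. Gene positions are from RefSeq GRCm38.p6, where all 10 symbols matched. Libraries of a group deviated from each other by 9.16 to 32.1 times the sampling noise. Alternatives were DESeq2 1.42.0, limma 3.58.1 (voom, or log2 of FPKM plus 1 or 0.1), RLE and upper-quartile scaling, other count filters, a replicate block and leaving out each mouse.

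The 10 members, the lists and the marker lists were chosen with earlier results of these data known. Named genes are the members, other listed genes at an unadjusted p below 0.05, copies of the ferritin genes and the 3 genes most correlated with Hmox1. Exceptions are Nfe2l2, Keap1, Bach1, Heph, Steap3, the markers and the untested genes, named after their values were seen.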

Additional observations from a re-analysis of the deposited data

Results flagged for a closer look

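In the groups of 4 mice, each measure was examined for a mouse whose gap to the nearest other, divided by the range of the group, passed Dixon's 95% critical value. Of 54 groups 2 passed, and chance gives about 2.7. The first was the Slc39a14 level of LPS + Tan replicate 2, at 367 CPM against 167 CPM in the next mouse, a gap of 0.844 of the range. The second was the ratio of Tfrc to Fth1 in LPS replicate 1, at 2.46 against 1.90 in the next mouse (multiplied by 1000), a gap of 0.896 of the range.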

How the results depend on the processing

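The 10 members kept an adjusted p above 0.05 in all 18 alternatives, with a lowest value of 0.239 for Slc39a14 without LPS + Tan replicate 2. Signs turned only in Blvrb (-0.0556 without LPS + Tan replicate 4) and Ftl1 (0.0199 in each of the 3 limma fits on FPKM, 0.0087 without LPS replicate 1 and 0.0555 without LPS + Tan replicate 2). Slc40a1 passed an unadjusted p of 0.05 in limma-voom (log2 fold change 0.3235) and in limma on log2(FPKM + 1) (0.3017, also over all genes) and log2(FPKM + 0.1) (0.3575). With each mouse left out in turn, log2 fold changes were 0.179 to 0.369 for Hmox1, -0.0556 to 0.286 for Blvrb, -0.326 to -0.165 for Fth1, -0.0616 to 0.0555 for Ftl1, 0.201 to 0.427 for Slc40a1, -1.05 to -0.323 for Slc39a14, -0.594 to -0.0871 for Cp, 0.0693 to 0.322 for Tfrc, 0.0652 to 0.302 for Slc11a1 and -0.117 to -0.0317 for Ncoa4. The same omissions gave 268 to 820 higher and 212 to 806 lower genes at an unadjusted p below 0.05 over all genes, 0 to 1 at an adjusted p below 0.05, 0 to 3 higher and 2 to 8 lower of the other heme and iron genes, and 0 to 3 correlated pairs at an adjusted p below 0.05. The lowest and highest counts over all genes were without LPS + Tan replicates 1 and 2, and there were 292 higher without LPS + Tan replicate 3, and 761 higher and 727 lower without LPS + Tan replicate 4, which alone gave the 1 gene at an adjusted p below 0.05. Higher genes numbered 848 and lower genes 418 in limma on log2(FPKM + 1) of all genes, and lower genes numbered 569 with no count filter. Genes at an adjusted p below 0.05 numbered 35 in DESeq2, which tested 24558 genes without the count filter, and 2 in limma on all genes. Limma on log2(FPKM + 1) and on log2(FPKM + 0.1) called 4 other heme and iron genes higher, in place of 2. Over all genes these fits called 644 and 639 higher and 276 and 272 lower, in place of 451 and 353 in edgeR. The cause of these shifts was not tested.

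Replicate numbers are shared between groups, but same-numbered mice did not deviate together (r 0.123, -0.0306, -0.148 and 0.0195 for numbers 1 to 4, and 0 of 4 mice correlated best with their own number). With the replicate number as a block, 397 genes were higher and 429 lower, and the unadjusted edgeR test passed 0.05 for Hmox1 (log2 fold change 0.2819), Tfrc (0.1970), Slc40a1 (0.3225) and Slc39a14 (-0.6754). The effect of depth on single genes was not tested.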

Other observations

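Among the 15706 genes tested, those whose log2 CPM followed Hmox1 most closely over the 8 mice were Fam217b (Pearson r 0.994), Rnf149 (0.971) and Fpr1 (0.969), the last a formyl peptide receptor of neutrophils and macrophages. These are the highest of many correlations searched, over libraries that share their preparation and depth, and are given as a description.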
